A study of Danio rerio with 11 samples.

Results

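Fully grown ovarian follicles of lhb/lhcgr double mutant zebrafish were compared with follicles of control fish by RNA-seq, with 4 mutant and 3 control libraries of the 11 in the series. The libraries were taken by their labels, as raw counts per gene. Of 35889 genes in the table, 19421 passed the expression filter and were tested, and the others were too low. The mutants were fshb+/-;lhb-/-;fshr+/-;lhcgr-/-, so that they lacked intact copies of lhb and lhcgr and carried 1 intact copy of fshb and of fshr. The controls were not wild type: they were heterozygous at all 4 genes (fshb+/-;lhb+/-;fshr+/-;lhcgr+/-), and the mutants shared their fshb and fshr genotypes. The other 4 libraries, from fshb-/-;lhb+/-;fshr+/-;lhcgr-/- mutants, served the estimate of the spread and a few comparisons named below. The fish were 180 days old, and follicles over 650 µm, held back by a 600 µm filter, were hand-picked. The labels do not give the kind of allele, or whether each library came from its own fish, so a p-value speaks only for the spread among these libraries.

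Luteinising hormone is made of a shared alpha subunit and its own beta subunit, encoded by lhb, and is released by the pituitary. It acts on the follicle wall through the receptor encoded by lhcgr, which signals by cAMP. In the ovary of fish, this signal is known for driving the last steps before spawning: the oocyte resumes meiosis and the follicle wall opens to release the egg. A fully grown follicle holds a large, mostly transcriptionally quiet oocyte with stored mRNA inside layers of granulosa cells and theca cells, and RNA of the whole follicle was sequenced together. In such samples, fewer cells of a type and less RNA per cell cannot be told apart.

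Totals were 15525728 to 25484718 counts in the mutant libraries and 15233928 to 15554138 in the control libraries. The deepest was mutant 3, and mutants 3 and 4 were the most alike, with r = 0.979 across genes (log2 CPM). The summed level of 46 tested egg envelope and maternal oocyte genes was 13365 to 19478 CPM in the mutants and 13098 to 17514 CPM in the controls. That of 25 granulosa cell markers was 1125 to 1892 CPM in the mutants and 1206 to 2696 CPM in the controls, so that both groups held the labelled tissue. CPM is the count per 1000000 counts, scaled with the TMM factors of edgeR. The mutated genes kept some mRNA. Levels of lhcgr were 115, 123, 188 and 168 CPM in the mutants, against 153, 336 and 104 CPM in the controls, and the groups overlapped (log2 difference -0.41, SE 0.34, adjusted p = 0.494). Levels of lhb were 1.21, 9.78, 0.371 and 1.08 CPM in the mutants, against 19.7, 38.1 and 28.5 CPM in the controls, with all 4 mutants below all controls and a difference that missed the threshold (log2 difference -3.22, SE 0.90, adjusted p = 0.0539). The counts of fshb were too low to be tested.

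Of the 19421 genes, 562 were higher in the mutants (2.89%) and 864 lower (4.45%), or 7.34% in all, at a Benjamini-Hochberg adjusted p under 0.05 over all genes (edgeR's quasi-likelihood test). An unadjusted p under 0.05 was reached by 4829 genes. The median log2 difference of all genes tested was 0.01 (quartiles -0.42 to 0.42). With scaling by library size only, in place of TMM, the counts were 848 higher and 578 lower and that median was 0.12, so that the balance of the directions depends on the scaling. The counts of higher and lower genes were 119 and 304 without control 1, 90 and 207 without mutant 4, 284 and 456 without mutant 1 and 289 and 498 without mutant 3. An alternative added once the data had been seen, without both mutants 3 and 4, gave 18 and 111. All library numbers below are replicate numbers within a group. The authors' deposited table for the same comparison gave an unadjusted p under 0.05 and the same sign for 1423 of the 1426 genes called here. That looser threshold was met there by 2460 higher and 2694 lower genes, and the overlap is no independent check of the calls.

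The direction of the calls followed gene length. The deposited FPKM values were made with 1 length per gene, which counts and FPKM together give back to the base, with a median of 2376 bases among the genes tested. How that length was defined is not given, so that it need not be the length of a gene's mRNA. In the shortest of 10 equal classes of genes, up to 923 bases, 4.48% were higher in the mutants and 1.65% lower. In the next class, of 924 to 1330 bases, these shares were 6.42% and 1.49%. In the longest class, from 6055 bases, 1.91% were higher and 12.2% lower. The median log2 difference was 0.24 and 0.28 in the 2 shortest classes and -0.28 in the longest. Genes at or under the median length had 379 higher and 185 lower calls, and longer genes had 183 and 679. A list of short genes thus starts from a positive background in these libraries, and a list of long genes from a negative one.

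**Figure D1:**
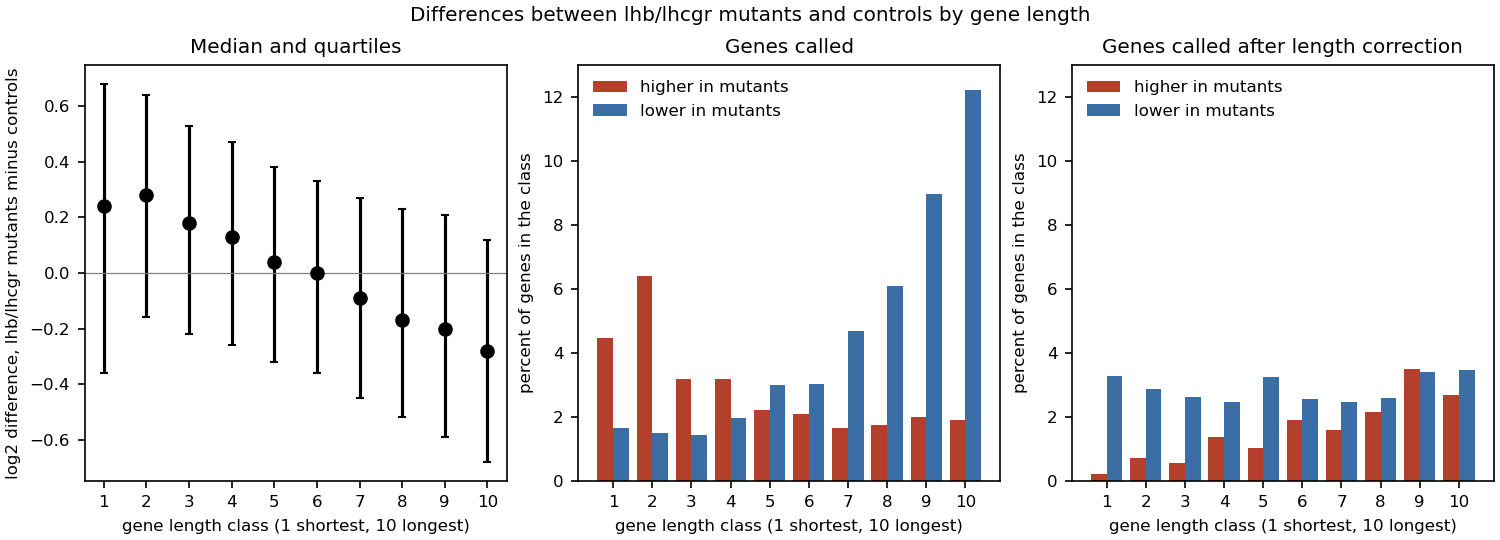
Log2 difference between lhb/lhcgr mutants and controls by gene length, in 10 classes of about equal size. Left, median and quartiles of the log2 difference. Middle and right, percent of genes called higher (red) and lower (blue) in the mutants, before and after a correction for length. The share of lower genes climbs to 12.2% in the longest class before the correction and lies between 2.47% and 3.45% in all classes after it.

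Each library had its own tilt with length. The slope of log2 CPM (minus the gene's mean over all libraries) per doubling of length was -0.0863, -0.0661, -0.00405 and -0.0595 in mutants 1 to 4, against 0.133, 0.0687 and 0.0237 in controls 1 to 3. The groups did not overlap, and their means differed by -0.129 (2-sided exact permutation test, p = 0.0571, the smallest that 4 against 3 libraries allow). Among genes above the median expression the difference was -0.225, and without the ribosomal and oxidative phosphorylation genes it was -0.128. Tilts also appeared between libraries of 1 group. Spearman's rho of the difference between 2 libraries with gene length, across genes that are not independent of each other, reached 0.149 between mutants 3 and 4 and 0.15 between controls 1 and 3. It was -0.239 between the group means. Those means average 4 and 3 libraries, so that this value is not a like measure to those of single libraries. Mutant 3 lay closest to the controls, and control 3 closest to the mutants.

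A correction for length was therefore run beside every result: a smooth curve of each library against length was taken out before the test. It left 306 genes higher (1.58%) and 563 lower (2.9%), or 4.47% in all, and 716 genes were called both with and without it. After it, 2.47% to 3.45% of genes in each length class were lower. Higher genes made up 0.206% of the shortest class and 2.68% of the longest, so that the classes were not evened out in that direction. A difference in length profile that belongs to the follicles and one that belongs to the RNA or the libraries would both be taken out, and which applies was not tested. Length-corrected values below come from this fit.

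The largest rises among genes with at least 5 CPM, groups that did not overlap and a symbol that is no clone or locus placeholder (one with a colon, for example) included secreted and membrane proteins. The gene tnfsf12 encodes TWEAK, a cytokine of the tumour necrosis factor family, and had 14.1, 12.3, 21.7 and 18.97 CPM in the mutants, against 0.335, 1.56 and 0.819 CPM in the controls (log2 difference 4.21, SE 0.66, adjusted p = 0.00518). This call stood whichever library was left out. The calcium sensor gene ncs1a had 32.7, 22.9, 51.3 and 42.5 CPM in the mutants, against 0.268, 5.11 and 3.28 CPM in the controls (log2 difference 3.69, SE 0.68, adjusted p = 0.0125), with control 1 far below the other 2 controls, and held its call too. The gene igfbp5b, whose protein binds insulin-like growth factors, had 102, 172, 342 and 239.6 CPM in the mutants, against 11.1, 30.2 and 10.6 CPM in the controls (log2 difference 3.63, SE 0.61, adjusted p = 0.0104). Its call was lost without control 1 (adjusted p then 0.0607).

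Other rises were smaller in level. The integrin-like gene itgbl1 had 8.63, 9.05, 14.2 and 9.21 CPM in the mutants, against 0.402, 2.48 and 0.882 CPM in the controls (log2 difference 3.03, SE 0.60, adjusted p = 0.0133), and the cell contact gene bves had 10.02, 2.32, 5.24 and 3.91 CPM in the mutants, against 0.402, 0.851 and 0.504 CPM in the controls (log2 difference 3.19, SE 0.56, adjusted p = 0.00788). Both calls held without any 1 library. The matrix gene mamdc2a reached 7.72 ± 1.52 CPM in the mutants and 0.734 ± 0.5598 CPM in the controls (SD, n = 4 and 3; log2 difference 3.39, SE 0.69, adjusted p = 0.01402), a call lost without control 1 (adjusted p then 0.05801). The transporter gene abcc6a had 0.966, 14.5, 21.2 and 13.7 CPM in the mutants, against 0.134, 0.284 and 0.945 CPM in the controls (log2 difference 4.75, SE 1.02, adjusted p = 0.0198), where mutant 1 lay next to control 3 and the call was lost without control 1 (adjusted p then 0.08996), control 2 (0.0541) or mutant 4 (0.0545). The transcription factor gene runx2a, which in mammals is known from bone and cartilage, had 0.785, 2.02, 31.4 and 11.7 CPM in the mutants, against 0.201, 0 and 0.6303 CPM in the controls (log2 difference 5.31, SE 1.33, adjusted p = 0.0368). Most of that rise stood in mutants 3 and 4, and the call was lost without any 1 of controls 1, 2 and 3, mutants 3 and 4 or fshb/lhcgr mutant 1 (adjusted p between 0.0514 and 0.157). The coagulation factor XIII gene f13a1a.1 (3.76, adjusted p = 0.0226) and the unnamed model LO018550.1 (3.47, adjusted p = 0.0211) complete the 12 together with c3a.4 and c7b, described with complement. Placeholder symbols with larger rises, such as si:dkey-285b23.3 below, stay outside this order. The calls of f13a1a.1 and LO018550.1 were lost without control 1, control 3 or lhb/lhcgr mutant 4 (adjusted p between 0.0522 and 0.0950).

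Of the 12 largest falls, chosen in the same way, 11 held their call without any 1 library. Bile acid synthesis has cyp7a1 as its rate-limiting enzyme, and the gene had 0.543, 0.367, 0.223 and 1.32 CPM in the mutants, against 36.8, 18.4 and 35.7 CPM in the controls (log2 difference -5.65, SE 0.58, adjusted p = 0.0002605). The metalloproteinase gene mmp28 had 0.0604, 0.489, 1.04 and 0.361 CPM in the mutants, against 16.4, 37.7 and 27.2 CPM in the controls (log2 difference -5.69, SE 0.68, adjusted p = 0.00119). The purine nucleoside phosphorylase gene pnp5a, the most abundant of the set, had 65.1, 155, 152 and 186 CPM in the mutants, against 1698, 2480.3 and 1573 CPM in the controls (log2 difference -3.78, SE 0.38, adjusted p = 0.000287). As the choice asked for groups that did not overlap, the separation of these genes is no further result.

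Of the 12 falls, 5 encode enzymes that act on lipids or sterols, a grouping made after their values were seen, which is not one of the gene lists used here. Among those lists, the called share was 9.3% for lipases and monoglyceride or endocannabinoid enzymes and 9.76% for sphingolipid enzymes. It was 10.5% for fatty acid binding, activation and storage and 6.9% for cholesterol synthesis, against 7.34% of all genes. The bile acid list, at 15.4% of 13 genes, is described below. The monoglyceride lipase gene mgll, which also ends endocannabinoid signals, had 0.423, 3.06, 2.45 and 2.47 CPM in the mutants, against 46.3, 24.4 and 34.7 CPM in the controls (log2 difference -4.05, SE 0.47, adjusted p = 0.000835). The phospholipase gene abhd3 had 7.73, 8.13, 16.4 and 13.01 CPM in the mutants, against 186, 162 and 129 CPM in the controls (log2 difference -3.81, SE 0.33, adjusted p = 8.56e-05). The secreted phospholipase gene pla2g1b, known from the pancreas, had 3 counts in the mutants, all in mutant 3, against 291 in the controls, or 0, 0, 0.186 and 0 CPM in the mutants, against 8.7005, 4.896 and 5.799 CPM in the controls (adjusted p = 0.00544). The sphingomyelinase-like gene smpdl3b had 0.0604, 0.611, 0.52004 and 0.1204 CPM in the mutants, against 5.42, 5.25 and 6.43 CPM in the controls (log2 difference -4.05, SE 0.64, adjusted p = 0.00508), and with cyp7a1 it completes the 5. In each of the 5 the call held after the length correction.

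The other falls were diverse. The adrenomedullin gene adm2a, which encodes a vasoactive peptide hormone, had 1.75, 6.72, 4.05 and 7.83 CPM in the mutants, against 60.03, 61.4 and 71.6 CPM in the controls (log2 difference -3.66, SE 0.39, adjusted p = 0.000395). Complexin, a regulator of vesicle fusion, is encoded by cplx2, which had 0.845, 1.41, 1.49 and 1.75 CPM in the mutants, against 23.4, 21.1 and 8.32 CPM in the controls (log2 difference -3.67, SE 0.40, adjusted p = 0.000371). The LIM domain gene crip3 had 2.05, 1.34, 1.34 and 1.75 CPM in the mutants, against 16.7, 26.3 and 18.5 CPM in the controls (log2 difference -3.66, SE 0.35, adjusted p = 0.000111). These 3 genes too were chosen for groups that did not overlap. The intestinal-type alkaline phosphatase gene alpi.2 had 0, 0, 0 and 0.1204 CPM in the mutants, against 11.98, 12.7 and 27.9 CPM in the controls (adjusted p = 0.00114). The coiled-coil gene ccdc15 had 0 counts in all 4 mutants against 279 in the controls, at least 158-fold lower by the floor of 3 counts over the group (adjusted p = 0.0232). The ccdc15 call was lost without control 1 (adjusted p then 0.0839) or mutant 4 (0.0576).

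**Figure D2:**
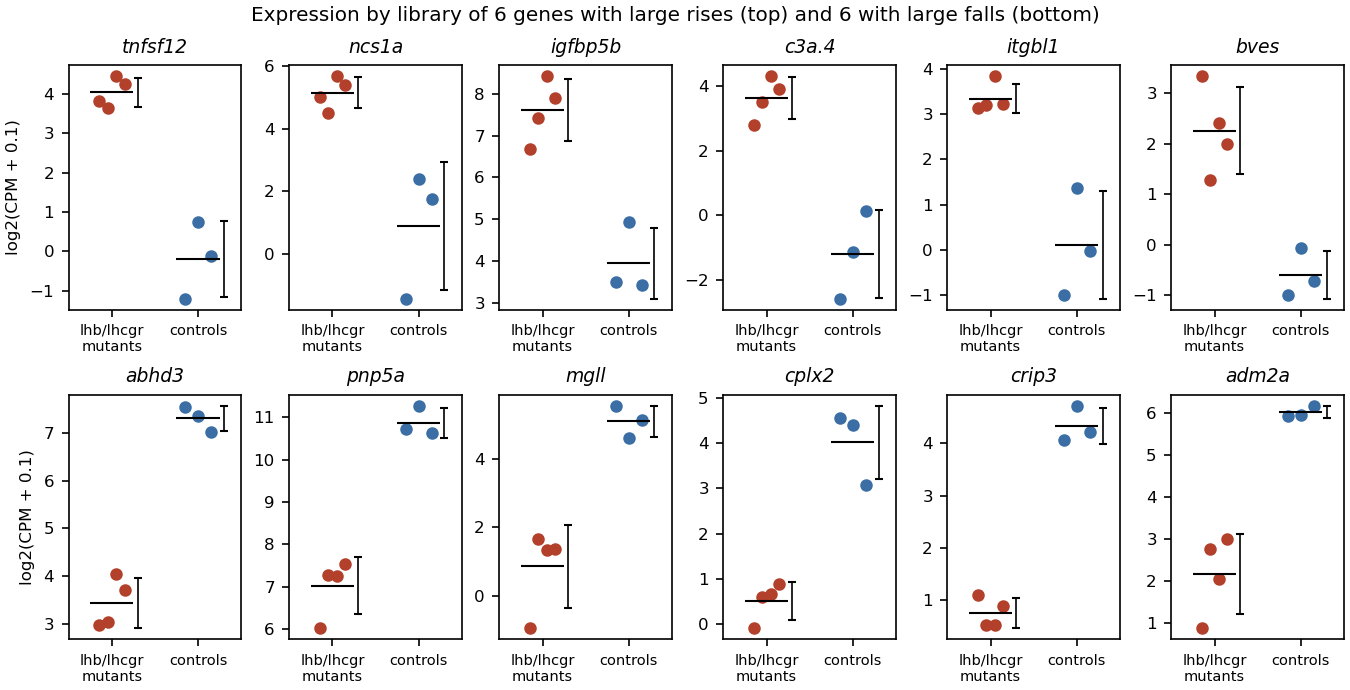
Expression of 12 genes in log2(CPM + 0.1), with 1 point per library, the group mean as a line and the SD beside it, for 4 lhb/lhcgr mutants (red, left) and 3 controls (blue, right). The genes were chosen for groups that do not overlap, for example adm2a with 1.75 to 7.83 CPM in the mutants and 60.0 to 71.6 CPM in the controls.

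Only 5 genes were on in one group and off in the other, with at least 3 CPM in every library of the first and under 0.3 CPM in every library of the second. Those on in the mutants were c7b and si:dkey-285b23.3, a model without a descriptive name that had 23.2, 17.9, 4.72 and 5.901 CPM in the mutants, against 0, 0 and 0 CPM in the controls. The call of si:dkey-285b23.3 (adjusted p = 0.0272) was lost without any 1 of controls 1, 2 and 3 or mutants 1 and 4 (adjusted p between 0.0502 and 0.102). Those on in the controls were ccdc15, alpi.2 and pla2g1b. The same split within a group, some libraries on and the others off, was met in 59 genes among the 4 mutants and in 86 among the 3 controls. In 13 genes it was met within both groups.

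One abundant transcript moved: CABZ01084501.3, which the symbol table names MFAP4, after a microfibril-associated glycoprotein. It was chosen after its values were seen. It took 0.281%, 0.761%, 0.376% and 0.405% of all counts in the mutants, against 1.89%, 3.64% and 1.96% in the controls, and the groups were far apart (log2 difference -2.58, SE 0.37, adjusted p = 0.00328, also held without any 1 library). Its level in the fshb/lhcgr mutants was 17098, 15969, 28321 and 15220.5 CPM (lhb/lhcgr minus fshb/lhcgr -2.14, SE 0.35, adjusted p = 0.00948), and all 4 lay above all lhb/lhcgr mutants.

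Gene families were read through 106 lists of genes matched by symbol. A list is described below if at least 8 members were tested and its called share was at least 1.5 times the 7.34% of all genes, or its median at least 0.30 from that of all genes. This held for 37 lists. Some of them entered by their median alone, with a called share near or under that of all genes. The other 69, of which 3 had under 8 members tested, include germ plasm, lymphocyte, spliceosome, zinc finger, ubiquitin ligase, cholesterol synthesis, TGF-beta and Wnt genes. Among those with 8 or more, medians lay between -0.28 and 0.31 and no called share passed 10.5%. Counts within lists rest on single libraries as the total does: the number called moved by over 1.5 times in 28 of the 37 without control 1, in 30 without mutant 4, in 17 without mutant 1, in 17 without mutant 3, in 13 without mutant 2, in 12 without control 2 and in 9 without control 3.

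**Figure D3:**
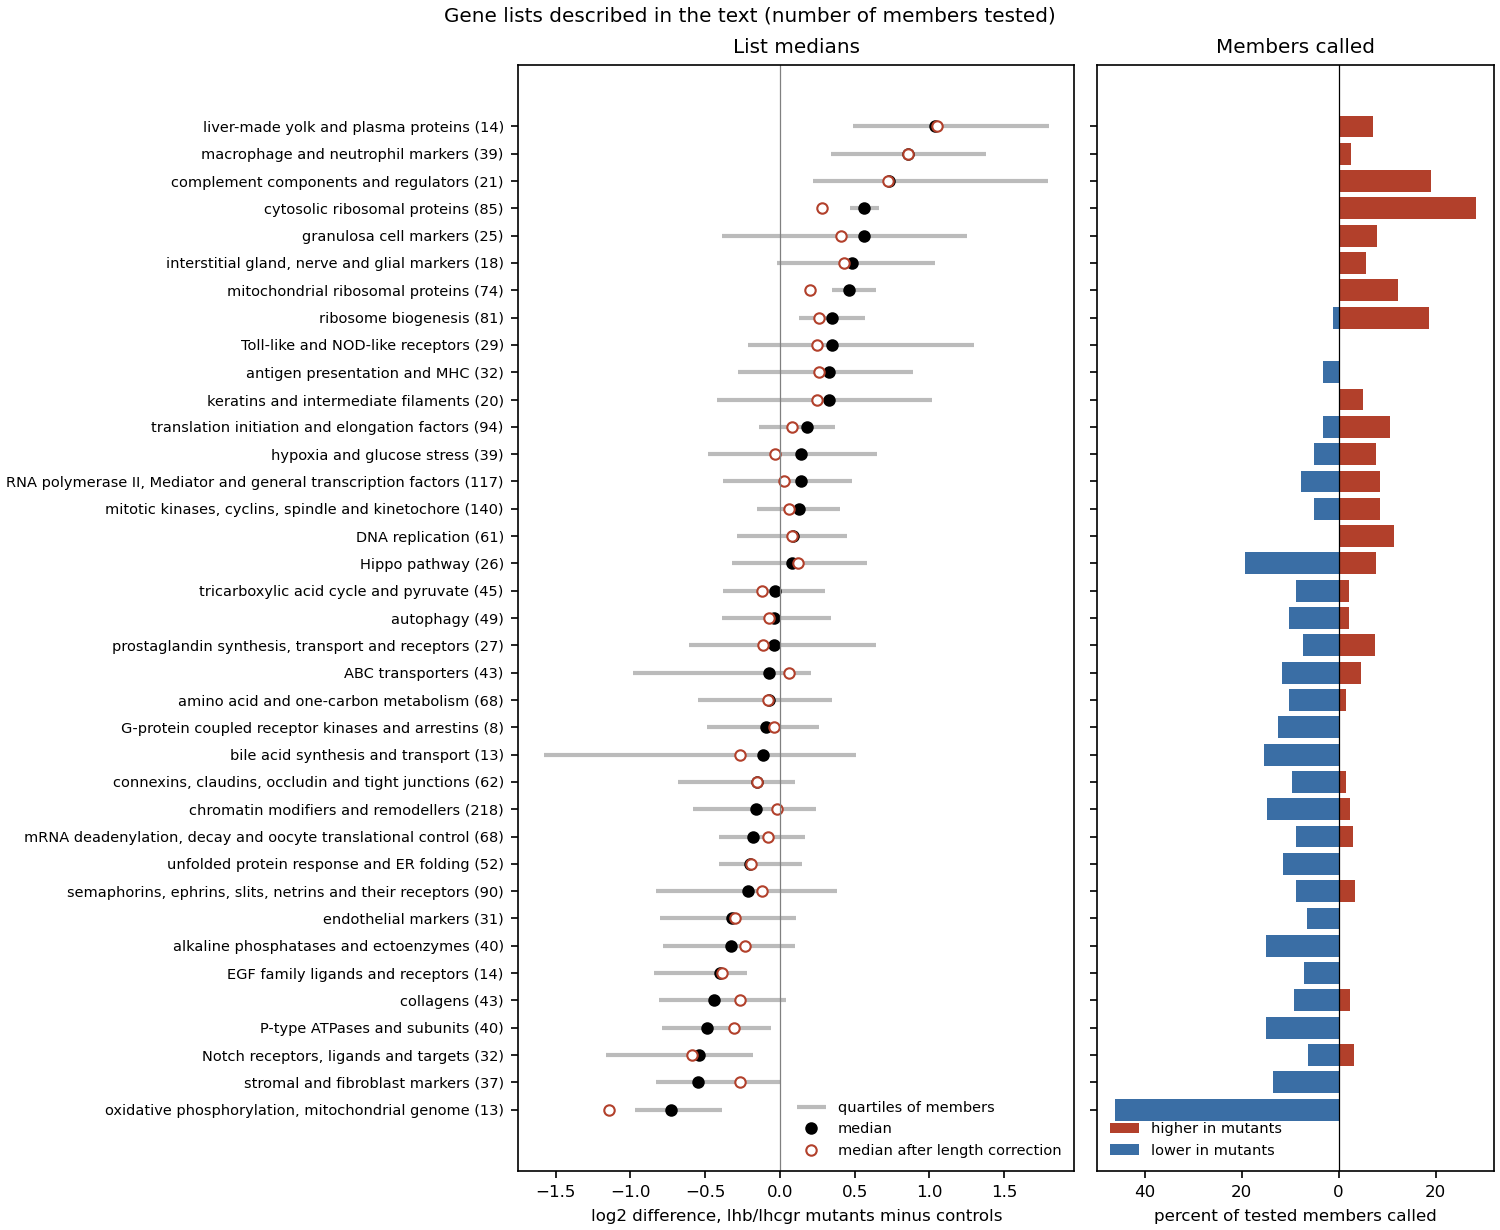
The 37 gene lists described, with the number of members tested in parentheses. Left, median log2 difference between lhb/lhcgr mutants and controls (black), quartiles of the members (grey bar) and median after the length correction (open red). Right, percent of members called higher (red, to the right) and lower (blue, to the left). Medians run from -0.73 for the mitochondrial genome to 1.04 for 14 liver-made proteins.

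Genes of the protein synthesis machinery were higher in many members, by small steps. Of 85 cytosolic ribosomal protein genes tested, 24 were called, all of them higher, against 2.89% of all genes, and 83 of the 85 had a positive difference, with a median of 0.56. Among 74 mitochondrial ribosomal protein genes, 9 were called, all higher (median 0.46). Genes of ribosome biogenesis, which process ribosomal RNA and assemble the subunits, had 15 higher and 1 lower of 81 (median 0.35), with 13 of the 15 at or under the median length, and after the length correction 4 were higher (median 0.26). The 94 translation factors had 10 higher and 3 lower (median 0.18), and 5 higher and 1 lower after the correction.

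By the deposited lengths, which need not be those of the mRNA, ribosomal protein genes are short, with a median of 1222 bases. They had positive medians on both sides of the median length of all genes. A member called long below is long by these values only. Whether the rise stands apart from a tilt with mRNA length was not tested. The 14 members over the median length of all genes had a median of 0.60 and 6 higher calls, and the 71 others had 0.54 and 18, while all genes stood at -0.14 and 0.17 on the 2 sides. After the length correction the median was 0.28 with 6 higher, and the mitochondrial set had 0.20 with 1 higher. A long member, rpl22 (3692 bases), had 182, 189, 202 and 195 CPM in the mutants, against 94.03, 129.8 and 117 CPM in the controls (log2 difference 0.76, SE 0.15, adjusted p = 0.0144), and kept its call after the correction (0.89, adjusted p = 0.0105). A short one, rps14 (507 bases), had 329, 371, 409 and 407 CPM in the mutants, against 209, 271 and 214 CPM in the controls (log2 difference 0.71, SE 0.16, adjusted p = 0.0184), and did not (0.29, adjusted p = 0.319). Both genes were chosen among members whose groups did not overlap, and their calls hung on single libraries. The call of rpl22 was lost without mutant 4 (adjusted p then 0.05197), and that of rps14 without control 1 (adjusted p then 0.0624), control 3 (0.0513) or mutant 4 (0.0633). The 24 higher calls became 11 without mutant 1, 10 without mutant 2, 6 without mutant 3, 0 without mutant 4, 2 without control 1, 56 without control 2 and 6 without control 3.

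Members of the assembly and translation factor lists with small p values moved in both directions. The 60S assembly gene nip7 had 32.4, 31.7, 34.8 and 32.8 CPM in the mutants, against 12.4, 17.2 and 14.3 CPM in the controls (log2 difference 1.17, SE 0.20, adjusted p = 0.00737), and utp11l, whose yeast counterpart acts in the small subunit processome, had 175, 125, 130.0 and 152 CPM in the mutants, against 79.1, 64.9 and 85.03 CPM in the controls (log2 difference 0.93, SE 0.18, adjusted p = 0.0126). The initiation factor gene eif1axa had 198, 187, 170.1 and 199 CPM in the mutants, against 95.7, 111 and 117 CPM in the controls (log2 difference 0.81, SE 0.15, adjusted p = 0.00932), and eef1da, a subunit of the elongation factor exchange complex, had 211, 222, 235 and 218 CPM in the mutants, against 128, 142 and 128 CPM in the controls (log2 difference 0.74, SE 0.13, adjusted p = 0.00792). The gene eif4ebp3, which encodes a binder and inhibitor of the cap-binding factor eIF4E, also rose, at 58.1 ± 5.91 CPM in the mutants and 24.9 ± 8.11 CPM in the controls (SD; log2 difference 1.22, SE 0.24, adjusted p = 0.0129). In the other direction, the scaffold gene eif4g3b (5921 bases) had 22.04, 26.8, 41.2 and 39.02 CPM in the mutants, against 74.4, 67.97 and 65.4 CPM in the controls (log2 difference -1.10, SE 0.21, adjusted p = 0.0121). Each of these 6 calls held without any 1 library. After the length correction, those of nip7, eef1da, eif4ebp3 and eif4g3b remained.

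**Figure D4:**
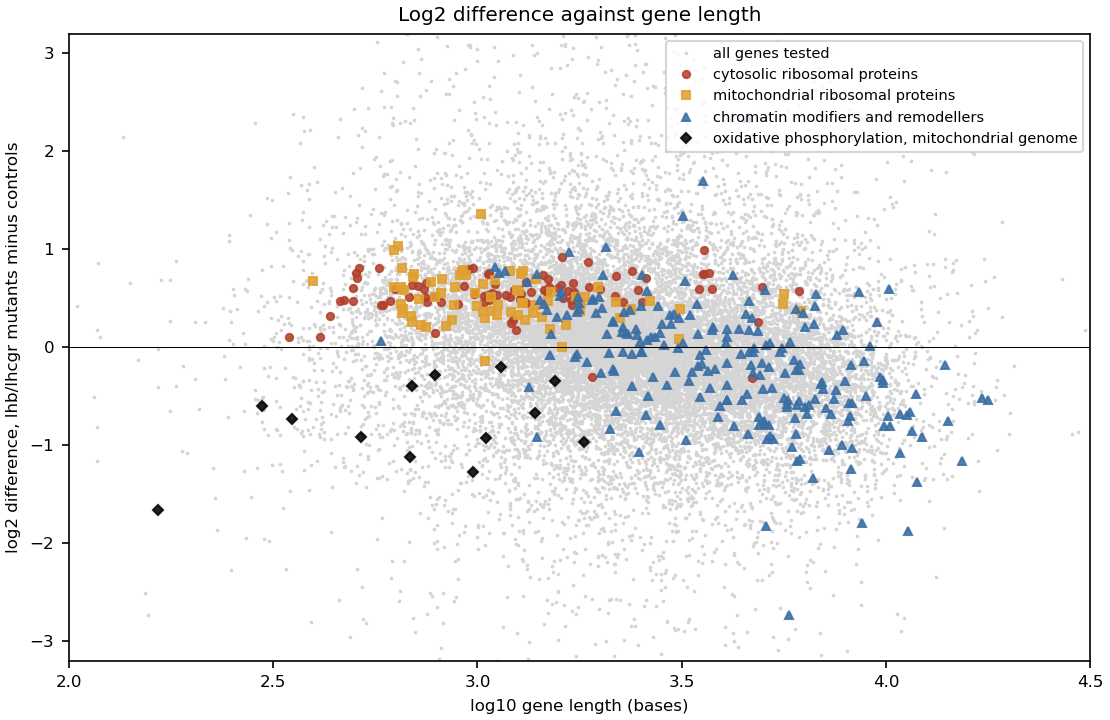
Log2 difference between lhb/lhcgr mutants and controls against gene length in log10 bases, for all genes tested (grey) and 4 lists. Ribosomal protein genes (red circles and yellow squares) stay above 0 at most lengths, chromatin genes (blue triangles) run downward with length, and the 13 mitochondrial genome genes (black diamonds) are short and all below 0. Outside the axes lie 248 genes.

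The 13 protein genes of the mitochondrial genome ran against the trend of short genes. Those named here beyond the ones with the smallest p were chosen after their values were seen. The 13 are short, with a median of 786 bases, and all 13 had a negative difference, with a median of -0.73 that became -1.14 after the length correction. The correction also moved the shortest class of all genes, up to 923 bases, from a median of 0.24 to -0.15. The 6 called were subunits of complex I and of the ATP synthase. The ATP synthase gene mt-atp8 had 10.6, 18.5, 24.1 and 18.9 CPM in the mutants, against 61.97, 54.1 and 54.9 CPM in the controls (log2 difference -1.66, SE 0.28, adjusted p = 0.00697), and mt-atp6 had 3585, 4691, 5046 and 3924 CPM in the mutants, against 7188, 11724 and 9286 CPM in the controls (log2 difference -1.12, SE 0.24, adjusted p = 0.0175). The complex I gene mt-nd1 had 760.0, 1239.9, 1347 and 1107 CPM in the mutants, against 1899, 3443 and 2719 CPM in the controls (log2 difference -1.27, SE 0.27, adjusted p = 0.0161), with mt-nd2, mt-nd5 and mt-nd6 between -0.92 and -0.97. The call of mt-atp8 held without any 1 library, while mt-atp6 lost its call without mutant 4 (adjusted p then 0.0633) and mt-nd1 without mutant 4 (adjusted p then 0.0554). The call of mt-nd2 was lost without any 1 of controls 1, 2 and 3, mutants 1, 2, 3 and 4 or fshb/lhcgr mutants 1 and 2 (adjusted p between 0.05304 and 0.123), that of mt-nd5 without any 1 of controls 1 and 2, mutants 1, 2 and 4 or fshb/lhcgr mutants 1 and 2 (adjusted p between 0.0522 and 0.113), and that of mt-nd6 without any 1 of controls 1 and 2, mutants 1, 2 and 4 or fshb/lhcgr mutants 1 and 2 (adjusted p between 0.05102 and 0.107).

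Differences were smaller in the cytochrome genes of the same genome. The cytochrome oxidase gene mt-co1 had 20716, 31787, 29081 and 22990.5 CPM in the mutants, against 23319.6, 52797 and 22959.5 CPM in the controls, and the groups overlapped (log2 difference -0.34, SE 0.34, adjusted p = 0.594). The values of mt-co2, mt-co3 and the complex III gene mt-cyb were -0.39, -0.28 and -0.20, none called. Control 2 was the highest of the 7 libraries in each of these 4 genes, and without it their differences were positive, at 0.12 to 0.36. All counts of the mitochondrial genome made up 5.28% to 7.67% in the mutants and 6.20% to 12.3% in the controls. The 114 nuclear genes of oxidative phosphorylation had 7 higher and 2 lower (7.89% called, against 7.34% of all genes). Their median was 0.31 and became -0.02 after the length correction. The 6 lower calls of the mitochondrial genome became 3 without mutant 1, 3 without mutant 2, 5 without mutant 3, 1 without mutant 4, 3 without control 1, 3 without control 2 and 5 without control 3.

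Genes of transcription and chromatin followed length closely. Chromatin modifiers and remodellers, which write, read and erase histone marks or slide nucleosomes, had 32 of 218 lower and 5 higher, with a median of -0.16 and a median length of 4386 bases. The 170 members over 2376 bases held all 32 lower calls (median -0.29), and of the 48 others 4 were called, all higher (median 0.34). After the length correction 2 were higher and 10 lower, with a median of -0.02. The 32 lower calls became 18 without mutant 1, 20 without mutant 2, 22 without mutant 3, 5 without mutant 4, 11 without control 1, 37 without control 2 and 27 without control 3.

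Members with the smallest p included subunits of known complexes. The BAF remodeller gene arid1ab (10786 bases) had 125, 128, 142 and 115 CPM in the mutants, against 339, 245 and 225 CPM in the controls (log2 difference -1.08, SE 0.17, adjusted p = 0.005196; length-corrected -0.70, adjusted p = 0.0485). The remodeller gene chd1 had 60.5, 70.4, 64.4 and 61.8 CPM in the mutants, against 173, 109.8 and 115 CPM in the controls (log2 difference -1.05, SE 0.18, adjusted p = 0.00742), and the acetyltransferase gene crebbpb had 86.1, 75.2, 81.8 and 77.1 CPM in the mutants, against 183, 146 and 124 CPM in the controls (log2 difference -0.92, SE 0.16, adjusted p = 0.00806), which was not called after the correction (-0.51, adjusted p = 0.141). In these 3 genes control 1 was the highest library and the call held without any 1. Of short members, ino80c had 79.9 ± 2.97 CPM in the mutants and 47.3 ± 9.17 CPM in the controls (SD; log2 difference 0.75, SE 0.16, adjusted p = 0.0178), lost without control 1 (adjusted p then 0.0635) or mutant 4 (0.0551).

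RNA polymerase II, Mediator and general transcription factors split by length, with 10 higher and 9 lower of 117, and 4 higher and 4 lower after the length correction. Members at or under the median length had 7 calls, all higher, and longer ones had 3 higher and 9 lower. The largest subunit of the polymerase, polr2a (8182 bases), had 149.5, 184, 171 and 163 CPM in the mutants, against 756, 471 and 358 CPM in the controls (log2 difference -1.66, SE 0.24, adjusted p = 0.00302; length-corrected -1.33, adjusted p = 0.00727). A small subunit of the same enzyme, polr2i (1230 bases), had 85.4, 67.7, 73.2 and 67.1 CPM in the mutants, against 27.7, 42.7 and 44.4 CPM in the controls (log2 difference 0.94, SE 0.20, adjusted p = 0.0164; length-corrected 0.63, adjusted p = 0.0603). The elongation factor gene supt4h1 had 34.9 ± 3.96 CPM in the mutants and 15.6 ± 3.43 CPM in the controls (SD; log2 difference 1.16, SE 0.21, adjusted p = 0.00955), and the Mediator gene med13b had 74.7 ± 5.73 CPM in the mutants and 184 ± 89.2 CPM in the controls (SD; log2 difference -1.30, SE 0.24, adjusted p = 0.0104). Calls of polr2a, supt4h1 and med13b held without any 1 library, and polr2i lost its call without control 1 (adjusted p then 0.0577).

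Control of stored mRNA is central to a growing oocyte, which lengthens or removes poly(A) tails to turn translation on or off. Of 68 genes of deadenylation, decay and translational control, 6 were lower and 2 higher (median -0.18, and -0.08 after the length correction, with 2 higher and 5 lower). The deadenylase gene pan3 had 42.4, 38.5, 41.2 and 38.2 CPM in the mutants, against 218, 89.7 and 92.5 CPM in the controls (log2 difference -1.73, SE 0.34, adjusted p = 0.01402), with control 1 far above the other controls. The mRNA-binding gene igf2bp1 had 12.7, 16.3, 12.9 and 11.9 CPM in the mutants, against 61.6, 22.4 and 40.2 CPM in the controls (log2 difference -1.62, SE 0.30, adjusted p = 0.00955). The oocyte form of the cap-binding factor, eif4e1b, had 159, 123, 122 and 149.7 CPM in the mutants, against 60.2, 69.6 and 102 CPM in the controls (log2 difference 0.84, SE 0.20, adjusted p = 0.0271). The call of igf2bp1 held without any 1 library. That of pan3 was lost without mutant 4 (adjusted p then 0.0529) and that of eif4e1b without any 1 of controls 1 and 2 or mutants 1 and 4 (adjusted p between 0.0607 and 0.101).

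Cell division lists held calls in both directions. Of 61 DNA replication genes 7 were called, all higher (median 0.09), with 1 higher after the length correction. Mitotic kinases, cyclins, spindle and kinetochore genes had 12 higher and 7 lower of 140, and 4 and 2 after it. The spindle checkpoint gene mad2l1 (872 bases) had 331, 276, 268 and 285 CPM in the mutants, against 150.4, 162 and 199 CPM in the controls (log2 difference 0.76, SE 0.15, adjusted p = 0.0129; length-corrected 0.38, adjusted p = 0.107), and its call held without any 1 library. The cyclin gene ccne1 had 33.02, 42.5, 24.3 and 33.2 CPM in the mutants, against 184, 47.8 and 89.6 CPM in the controls (log2 difference -1.69, SE 0.35, adjusted p = 0.0168), a call lost without control 1 (adjusted p then 0.0556) or mutant 4 (0.0554). The replication factor gene rpa3 had 106 ± 16.4 CPM in the mutants and 59.6 ± 2.66 CPM in the controls (SD; log2 difference 0.83, SE 0.17, adjusted p = 0.0133), a call lost without mutant 4 (adjusted p then 0.0529).

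Calls in the lists of endoplasmic reticulum folding and of autophagy were mostly lower, while the 123 heat shock and chaperone genes had 3 higher and 2 lower. Of 52 genes of the unfolded protein response and of folding in the endoplasmic reticulum, 6 were called, all lower (median -0.20, and -0.19 after the length correction, with 1 higher and 3 lower). The disulphide isomerase gene pdia2 had 22.5, 89.6, 89.3 and 60.7 CPM in the mutants, against 395, 529 and 519 CPM in the controls (log2 difference -2.88, SE 0.53, adjusted p = 0.0141), lost without control 1 (adjusted p then 0.0509) or mutant 4 (0.0531). Autophagy genes had 5 lower and 1 higher of 49, and 1 higher and 3 lower after the correction. Among them the 2 copies of a regulator of autophagy initiation fell together: ambra1a had 16.1, 16.1, 17.98 and 14.2 CPM in the mutants, against 66.3, 30.8 and 37.9 CPM in the controls (log2 difference -1.48, SE 0.25, adjusted p = 0.00697), and ambra1b had 44.7, 44.6, 43.9 and 36.5 CPM in the mutants, against 126, 80.6 and 93.03 CPM in the controls (log2 difference -1.24, SE 0.17, adjusted p = 0.00243). Both calls held without any 1 library and after the length correction. The autophagosome marker gene map1lc3c had 825 ± 88.5 CPM in the mutants and 441 ± 94.02 CPM in the controls (SD; log2 difference 0.90, SE 0.18, adjusted p = 0.0129), lost without mutant 4 (adjusted p then 0.05003). All 5 lower calls of the autophagy list lay in its 28 members over the median length of all genes (median -0.28). The 21 others had 1 call, higher, and a median of 0.29.

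Metabolic lists held few calls, most of them lower. Amino acid and one-carbon genes had 7 lower and 1 higher of 68, and 2 higher and 6 lower once length was corrected for. The gene cth, whose enzyme makes cysteine from cystathionine, had 7.91, 11.4, 10.4 and 10.1 CPM in the mutants, against 59.8, 76.8 and 37.3 CPM in the controls (log2 difference -2.54, SE 0.26, adjusted p = 0.0002605). The proline dehydrogenase gene prodha had 29.8, 48.8, 47.2 and 55.9 CPM in the mutants, against 181, 264 and 121 CPM in the controls (log2 difference -2.06, SE 0.34, adjusted p = 0.00754), and the alanine aminotransferase gene gpt2 had 104 ± 4.02 CPM in the mutants and 214 ± 43.4 CPM in the controls (SD; log2 difference -1.04, SE 0.18, adjusted p = 0.00737). These 3 calls held without any 1 library and after the length correction. Of 13 bile acid genes 2 were lower: cyp7a1, above, and the bile acid uptake gene slc10a1, with 0.302, 0.0611, 0.297 and 0 CPM in the mutants, against 2.54, 2.696 and 2.84 CPM in the controls (log2 difference -3.91, SE 0.88, adjusted p = 0.0211), lost without control 1 (adjusted p then 0.05802) or mutant 4 (0.05596). Genes of the tricarboxylic acid cycle and of pyruvate had 1 higher and 4 lower of 45, and 0 higher and 1 lower after the correction.

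The list of alkaline phosphatases and of families with enzymes at the cell surface had 6 calls among 40 genes, all lower (median -0.33). Its members were matched by symbol, and not every one acts at the cell surface. Besides alpi.2, the carbonic anhydrase family gene ca8 had 30.9, 27.9, 51.04 and 43.3 CPM in the mutants, against 153, 216 and 128 CPM in the controls (log2 difference -2.11, SE 0.29, adjusted p = 0.00302), and the peptidase gene dpp9 had 64.3 ± 6.08 CPM in the mutants and 121 ± 23.2 CPM in the controls (SD; log2 difference -0.91, SE 0.16, adjusted p = 0.00823). Both calls held without any 1 library, and 5 of the 40 were lower after the length correction. The 6 lower calls became 5 without mutant 1, 5 without mutant 2, 6 without mutant 3, 4 without mutant 4, 7 without control 1, 6 without control 2 and 5 without control 3.

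Membrane transport lists were lower in part. P-type ATPases, which pump ions or flip lipids across membranes, and their subunits had 6 calls among 40 genes, all lower, and 31 of the 40 had a negative difference, with a median of -0.49 that became -0.31 with 1 lower after the length correction. The gene atp2b1a (5951 bases), which encodes a calcium pump of the plasma membrane, had 80.5, 84.3, 80.6 and 78.4 CPM in the mutants, against 261, 129 and 137 CPM in the controls (log2 difference -1.12, SE 0.26, adjusted p = 0.0249; length-corrected -0.85, adjusted p = 0.07097). Its call was lost without any 1 of control 1 or mutants 1, 3 and 4 (adjusted p between 0.0548 and 0.113). ABC transporters had 5 lower and 2 higher of 43, and 2 higher and 3 lower once length was corrected for. The efflux transporter gene abcc1 had 23.8, 18.5, 16.4 and 16.02 CPM in the mutants, against 94.3, 34.1 and 43.7 CPM in the controls (log2 difference -1.62, SE 0.31, adjusted p = 0.0114), where control 1 was the highest and the call held without any 1 library.

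Junction genes, which seal and couple the cells of the wall and join them to the oocyte, had 6 lower and 1 higher of 62 (median -0.15 before and after the length correction, with 5 lower after it). The cingulin gene cgna, a tight junction plaque protein, had 17.1, 17.3, 16.2 and 13.8 CPM in the mutants, against 68.9, 68.3 and 46.3 CPM in the controls (log2 difference -1.93, SE 0.23, adjusted p = 0.000835). The tight junction gene marveld3 had 21.6, 16.02, 10.7 and 17.9 CPM in the mutants, against 83.5, 33.5 and 42.6 CPM in the controls (log2 difference -1.69, SE 0.30, adjusted p = 0.00823). The one higher gene was the claudin cldn7a, with 33.9, 54.04, 99.8 and 76.6 CPM in the mutants, against 7.83, 27.96 and 8.698 CPM in the controls (log2 difference 2.16, SE 0.55, adjusted p = 0.0377), lost without any 1 of controls 1 and 3 or mutants 2, 3 and 4 (adjusted p between 0.0507 and 0.153). Of 20 keratin and intermediate filament genes, 1 was called (5.0%, against 7.34% of all genes), the keratin gene krt91. It had 119.5, 77.8, 109.6 and 122 CPM in the mutants, against 12.3, 38.7 and 22.1 CPM in the controls (log2 difference 2.14, SE 0.32, adjusted p = 0.00382). Calls of cgna, marveld3 and krt91 held without any 1 library.

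Wall and matrix lists shifted in both directions. Stromal and fibroblast markers had 5 calls among 37 genes, all lower (median -0.55, and -0.27 with 2 lower after the length correction), and collagens had 4 lower and 1 higher of 43 (median -0.44, and -0.27 with 2 higher and 2 lower after it). The called shares were 13.5% and 11.6%, against 7.34% of all genes. Both lists are long, with median lengths of 5255 and 5937 bases. Of all genes of 4496 to 6053 bases, 2.01% were higher and 8.96% lower. The fibrillar collagen gene col1a2, which is in both lists, had 22.1, 22.99, 19.7 and 23.5 CPM in the mutants, against 35.7, 49.5 and 57.04 CPM in the controls (log2 difference -1.10, SE 0.22, adjusted p = 0.0136). The collagen processing gene pcolceb had 12.4, 24.5, 10.4 and 14.4 CPM in the mutants, against 49.2, 39.6 and 43.7 CPM in the controls (log2 difference -1.52, SE 0.29, adjusted p = 0.0104). Both calls held without any 1 library. The summed level of the 37 stromal markers was 2055 to 2403 CPM in the mutants and 1863 to 2775 CPM in the controls, so that it overlapped, and the part of these cells in the falls was not tested. Endothelial markers had 2 calls among 31 (6.45%, against 7.34% of all genes), both lower, with a median of -0.32. They were kdrl (-1.51, adjusted p = 0.00518) and flt1 (-1.79, adjusted p = 0.0126). The summed level of the 31 was 199 to 249.7 CPM in the mutants and 236 to 415 CPM in the controls. Both of these calls held without any 1 library.

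The 25 granulosa cell markers had a median of 0.56, and 9 of them had a negative difference. After the length correction the median was 0.41, with 2 higher and 1 lower. Their summed level, given above, was 1125 to 1892 CPM in the mutants and 1206 to 2696 CPM in the controls, so that the groups overlapped. Without the correction 2 were called (8.0%, against 7.34% of all genes), both higher. One was fshr, the receptor of follicle-stimulating hormone, of which both groups carry 1 intact copy, with 41.6, 44.6, 53.9 and 45.5 CPM in the mutants, against 5.42, 22.5 and 9.14 CPM in the controls (log2 difference 1.91, SE 0.43, adjusted p = 0.021995). The other was the steroid enzyme gene hsd17b1, with 51.7, 44.3, 57.9 and 50.6 CPM in the mutants, against 9.37, 22.8 and 11.7 CPM in the controls (log2 difference 1.80, SE 0.35, adjusted p = 0.0123). In both genes control 2 was the control nearest to the mutants. The call of hsd17b1 held without any 1 library, and that of fshr was lost without control 1 (adjusted p then 0.0635), control 3 (0.0525) or mutant 4 (0.0576).

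Complement, Toll-like and NOD-like receptor and antigen presentation lists had positive medians, while the 93 interleukin and interferon genes had a median of -0.05. The receptor and antigen presentation lists held few calls or none. Complement components had 4 calls, all higher, among 21 genes tested (19.0%, against 7.34% of all genes), out of 40 in the table. Their median was 0.73, and 0.72 with 2 higher after the length correction. The 4 calls became 2 without mutant 1, 3 without mutant 2, 1 without mutant 3, 1 without mutant 4, 0 without control 1, 2 without control 2 and 3 without control 3. The complement C3 gene c3a.4 had 6.82, 11.2, 19.7 and 14.9 CPM in the mutants, against 0.0669, 0.355 and 1.01 CPM in the controls (log2 difference 4.75, SE 0.89, adjusted p = 0.0129), a call lost without control 1 (adjusted p then 0.0519). The terminal component gene c7b had 71.8, 9.48, 50.8 and 59.8 CPM in the mutants, against 0.268, 0.284 and 0.252 CPM in the controls (log2 difference 7.45, SE 1.77, adjusted p = 0.0396). Its call was lost without any 1 of controls 1, 2 and 3, mutants 1, 3 and 4 or fshb/lhcgr mutants 2 and 4 (adjusted p between 0.0517 and 0.155). In the fshb/lhcgr mutants c7b had 122, 67.6, 0.463 and 91.6 CPM, so that 1 library of that group was as low as the controls. Genes as low in the controls as c3a.4 and c7b pass the expression filter through mutant libraries. Such genes could be called only higher, so that the direction of these calls is no further result.

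Macrophage and neutrophil markers had a median of 0.86 before and after the length correction, and 37 of 39 had a positive difference, but only the protease gene mmp13b was called (4.35, adjusted p = 0.0492), and it lost the call without any 1 of controls 1 and 2, mutants 1, 2, 3 and 4 or fshb/lhcgr mutants 2, 3 and 4 (adjusted p between 0.0534 and 0.155). The median stayed between 0.52 and 1.31 without any 1 of the 7 libraries, but was -0.16 without both mutants 3 and 4. Their summed level, however, was 1309.6 to 2768 CPM in the mutants and 1104 to 2082 CPM in the controls, so that the groups overlapped. Of 14 tested liver-made yolk and plasma genes, out of 52 in the table, only c3a.4 was called (7.14%, against 7.34% of all genes). Their median was 1.04, with summed levels of 79.8 to 224 CPM in the mutants and 54.0 to 95.2 CPM in the controls. As described with complement, c3a.4 passed the filter through mutant libraries and could be called only higher. The 29 Toll-like and NOD-like receptor genes had a median of 0.35. The peptide transporter gene tap2t was the one called of 32 antigen presentation genes, at 15.5 ± 2.98 CPM in the mutants and 48.2 ± 14.4 CPM in the controls (SD; log2 difference -1.63, SE 0.29, adjusted p = 0.00895), held without any 1 library. The 18 nerve, glial and interstitial gland markers had 1 higher and a median of 0.48, with a called share of 5.56% against 7.34% of all genes.

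Signalling lists mixed directions. Of 26 genes of the Hippo pathway, which limits growth through the kinases that restrain YAP, 5 were lower and 2 higher, or 26.9% called. After the length correction 1 was lower and 2 were higher, and all 7 calls lay in members over the median length of all genes. The gene amotl2b, whose protein binds YAP, had 67.9, 75.4, 116 and 102 CPM in the mutants, against 26.7, 33.1 and 32.8 CPM in the controls (log2 difference 1.55, SE 0.20, adjusted p = 0.00167; length-corrected 1.62, adjusted p = 0.00154). The effector gene yap1 had 41.8, 51.04, 57.5 and 51.5 CPM in the mutants, against 83.6, 71.2 and 68.8 CPM in the controls (log2 difference -0.56, SE 0.15, adjusted p = 0.0411), and lost its call after the correction (-0.40, adjusted p = 0.126). The amotl2b call held without any 1 library, and that of yap1 was lost without any 1 of controls 1, 2 and 3, mutants 1, 2, 3 and 4 or fshb/lhcgr mutants 1 and 4 (adjusted p between 0.0504 and 0.143). The count of lower Hippo genes became 2 without mutant 1, 1 without mutant 2, 2 without mutant 3, 0 without mutant 4, 1 without control 1, 2 without control 2 and 2 without control 3.

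Axon guidance families, which also act on vessels and cell movement, had 8 lower and 3 higher of 90, and 4 higher and 5 lower once length was corrected for. The ligand gene sema3d had 0.483, 1.22, 1.3001 and 1.69 CPM in the mutants, against 2.61, 21.4 and 6.996 CPM in the controls (log2 difference -3.13, SE 0.61, adjusted p = 0.0127), with control 1 next to the mutants. Neuropilin is a receptor of such ligands, and nrp2b had 23.5, 23.2, 33.99 and 29.9 CPM in the mutants, against 4.68, 13.2 and 5.17 CPM in the controls (log2 difference 1.85, SE 0.34, adjusted p = 0.0101). Both calls held without any 1 library and after the length correction. The ligand gene slit3 had 41.9 ± 14.98 CPM in the mutants and 14.9 ± 7.99 CPM in the controls (SD; adjusted p = 0.0273), lost without any 1 of controls 1 and 3 or mutants 3 and 4 (adjusted p between 0.0632 and 0.103).

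Local mediators of ovulation gave single calls. Prostaglandin genes had 2 higher and 2 lower of 27: the synthase gene ptgs2b (1.43, adjusted p = 0.00947, held without any 1 library) and the phospholipase gene pla2g4ab, with 5.01, 5.07, 2.82 and 3.13 CPM in the mutants, against 1.34, 0.497 and 0.819 CPM in the controls (log2 difference 2.17, SE 0.53, adjusted p = 0.0283), were higher, and pla2g1b and the degrading enzyme gene hpgd, with 67.7, 71.6, 105 and 82.98 CPM in the mutants, against 125, 191 and 113 CPM in the controls (log2 difference -0.81, SE 0.23, adjusted p = 0.0487), were lower. The pla2g4ab call was lost without any 1 of controls 2 and 3 or mutants 1, 2 and 4 (adjusted p between 0.0578 and 0.0684), and that of hpgd without any 1 of controls 1 and 2, mutants 1, 2 and 4 or fshb/lhcgr mutants 1, 2 and 4 (adjusted p between 0.0502 and 0.167). The receptor kinase gene grk4, which shuts off G-protein coupled receptors, had 28.9, 29.5, 45.7 and 43.3 CPM in the mutants, against 107, 96.1 and 77.3 CPM in the controls (log2 difference -1.34, SE 0.22, adjusted p = 0.00544), held without any 1 library and after the length correction. It was the only one called of 8 receptor kinases and arrestins.

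Ligands and receptors of the EGF family, which pass the ovulatory signal on within the follicle in mammals, had a median of -0.40 (13 of 14 negative), which was -0.39 after the length correction. Of the 14, 1 was called (7.14%, against 7.34% of all genes). The ligand gene areg was called, with 3.1997, 1.71, 2.82 and 2.95 CPM in the mutants, against 8.03, 8.59 and 4.22 CPM in the controls (log2 difference -1.37, SE 0.39, adjusted p = 0.04701; length-corrected -1.05, adjusted p = 0.124), but not without any 1 of controls 1 and 2, mutants 1, 2, 3 and 4 or fshb/lhcgr mutants 1, 2 and 3 (adjusted p between 0.05196 and 0.153). Notch receptors, ligands and targets had a median of -0.54 (26 of 32 negative) that became -0.59 after the correction. Of them 1 was higher and 2 lower (9.38% called, against 7.34% of all genes), and 1 of each after the correction. The her family gene her5, in the list by its symbol and not shown here to be a Notch target, had 0.724, 0.122, 0 and 0.301 CPM in the mutants, against 2.81, 2.48 and 2.395 CPM in the controls (log2 difference -3.18, SE 0.84, adjusted p = 0.03803). Its call was lost without any 1 of controls 1, 2 and 3, mutants 2 and 4 or fshb/lhcgr mutant 1 (adjusted p between 0.05103 and 0.108). Hypoxia and glucose stress genes had 3 higher and 2 lower of 39, and 1 higher and 1 lower after the correction.

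Zebrafish carry many gene pairs from the genome duplication of bony fish, whose symbols end in a and b. Among 1767 pairs of such symbols with both members tested, some of them not duplicates, 1499 had no call, 246 had 1 member called, 19 had both called in the same direction (14 lower, 5 higher) and 3 in opposite directions. Over all genes tested, 2.89% were higher and 4.45% lower. Whether pairs were called together more often than these shares give was not tested, and the 3 in opposite directions are a description. The collagen XII genes were one of the 3: col12a1b had 49.9, 42.4, 66.6 and 56.5 CPM in the mutants, against 15.995, 20.7 and 13.2 CPM in the controls (log2 difference 1.70, SE 0.27, adjusted p = 0.00544), while col12a1a had 30.4, 36.6, 30.98 and 33.4 CPM in the mutants, against 77.6, 72.7 and 92.7 CPM in the controls (log2 difference -1.30, SE 0.22, adjusted p = 0.00737). Their lengths are close, at 11059 and 10798 bases, and both calls held without any 1 library and after the length correction. The transcription factor genes bcl11aa (1.89) and bcl11ab (-1.25) were apart too, at adjusted p = 0.0174 and 0.0358. So were the fatty acid activating genes acsl1a (1.65) and acsl1b (-1.10), at 0.0412 and 0.0265. Of these 4, bcl11aa lost its call without control 1 (adjusted p then 0.06799) or mutant 4 (0.05298), bcl11ab without any 1 of controls 1, 2 and 3 or mutants 1, 3 and 4 (adjusted p between 0.0633 and 0.0997), acsl1a without any 1 of controls 1, 2 and 3, mutants 3 and 4 or fshb/lhcgr mutants 1, 3 and 4 (adjusted p between 0.0508 and 0.152) and acsl1b without any 1 of controls 2 and 3 or mutants 1, 2 and 4 (adjusted p between 0.0532 and 0.0624).

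Genes that lie near lhb and lhcgr were examined because the groups differ at these loci by design, using the gene order of the RefSeq annotation of GRCz12tu, in which 15077 tested genes were matched by symbol. Of the 40 nearest tested genes of lhb, 20 on each side, 3 were called (7.5%, against 7.34% of all genes), with a median of 0.10. They were pno1 (0.73, adjusted p = 0.0145), which acts in ribosome assembly, the GDF15 receptor gene gfral (-3.15, adjusted p = 0.02597) and the ubiquitin ligase gene ubr2 (-0.62, adjusted p = 0.0224). Of the 40 around lhcgr, 3 were called as well (median -0.16): the Golgi gene golga4 (-1.10, adjusted p = 0.0194), the oxygen sensor gene egln1a (3.86, adjusted p = 0.0424) and the lysosome trafficking gene lyst (-1.34, adjusted p = 0.0168). The call of pno1 held without any 1 library. Those of the other 5 did not: gfral was lost without control 1 (adjusted p then 0.0797), control 2 (0.0502) or mutant 1 (0.0504), ubr2 without control 1 (adjusted p then 0.0778) or mutant 4 (0.0783), golga4 without control 1 (adjusted p then 0.0885) or mutant 4 (0.05197), lyst without control 1 (adjusted p then 0.0849) or mutant 4 (0.0538), and egln1a without any 1 of controls 1 and 2, mutants 1, 2, 3 and 4 or fshb/lhcgr mutants 1, 2 and 4 (adjusted p between 0.0503 and 0.136).

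The lhb/lhcgr mutants also differed from the fshb/lhcgr mutants, with 460 of 19421 genes called (2.37%), a comparison that shares the lhb/lhcgr libraries with the one above. Among the genes described, tnfsf12 had 0.751, 2.31, 3.09 and 0.495 CPM in the fshb/lhcgr mutants (lhb/lhcgr minus fshb/lhcgr 3.34, SE 0.56, adjusted p = 0.00958), and all 4 lhb/lhcgr mutants lay above all 4 of them. The phosphorylase gene pnp5a had 1488, 873, 2036 and 946 CPM there (-3.26, SE 0.36, adjusted p = 0.00122), and the lowest of them lay far above the highest lhb/lhcgr mutant. For mgll the fshb/lhcgr mutants had 20.1, 38.8, 22.8 and 32.6 CPM (-3.76, SE 0.45, adjusted p = 0.00193). For cyp7a1 they had 1.501, 1.12, 3.704 and 1.92 CPM (-1.76, SE 0.53, adjusted p = 0.0968), and the difference between the 2 mutant groups was not called.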

How the data were processed

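The authors deposited raw counts per gene and, beside them, FPKM values, which are counts scaled to gene length and sequencing depth. Their comparison table, with log2 fold changes and p-values, was deposited too. Among the tools listed in the submitters' processing notes is DESeq2 1.20.0, with no role stated. Per the labels' protocols, RNA was extracted with Trizol, selected with poly-T beads and made into libraries with a TruSeq kit. The aligner, the counting, its use of strand and the genome are not given in these sources, so that reads of overlapping or near-identical genes may have been split. Dividing counts by FPKM gave 1 length for each of 29409 genes, a whole number of bases within 0.05 in all of them.

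Samples were grouped by their labels. The deposited counts of all 11 libraries of 3 groups were fitted with edgeR 4.0.16 in R 4.3.3 (robust quasi-likelihood test, TMM factors, group as the only term). Genes passed the filter with a minimum count of 10 and a minimum total of 15, as edgeR's filterByExpr applies them. The common biological coefficient of variation was 0.384. An adjusted p is a Benjamini-Hochberg value over the 19421 genes tested, with a threshold of 0.05. SD is over 4 mutant and 3 control libraries. SE is the size of the fitted difference over the square root of its F statistic, from the fit of all 11 libraries. Differences are lhb/lhcgr minus control on the log2 scale, unless named otherwise. Log2 CPM values, as in the length slopes, the length curves and the correlations, used a prior count of 2. Fitted differences used edgeR's default prior count instead, and those of genes with few counts depend on it. Floors of 3 counts cover counting error only.

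The length correction used a natural spline of each library on log2 length as an offset. The scripts were tested on simulated counts with known changes. Alternatives were RLE, upper quartile and library size scaling, 2 other filters, a fit of the 2 groups alone, a replicate block, limma 3.58.1 (voom), DESeq2 1.42.0 and each library left out in turn. The gene order came from a RefSeq table of GRCz12tu, whose coordinates were not used for printing.

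Named were, by rule, the 12 largest rises and falls with at least 5 CPM, no overlap and a symbol that is no clone or locus placeholder by its form (a colon, or a start such as LOC or CABZ; LO018550.1 was not caught by this), up to 3 called genes per list and direction with no overlap, the mutated genes and fshr, pairs called in opposite directions and called neighbours. The report prints a selection of them, and other genes only as chosen after their values were seen. The comparison, the gene lists and the tests were chosen with earlier results of these data known.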

Additional observations from a re-analysis of the deposited data

Results flagged for a closer look

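In 9 of 108 genes checked, printed above or below, 1 of the 4 lhb/lhcgr mutant libraries lay far from the other 3 by Dixon's test. Chance marks about 1 in 20 groups. The highest and the lowest library were looked at in each gene, in 216 tests. Some marks are thus due to chance alone, and the marks below are a description. Where the other 3 libraries have 0 counts, the test marks any count at all. The marks of pla2g1b and alpi.2 arose in this way and say nothing about spread. Controls, with 3 libraries, were not tested in this way.

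Mutant 2 stood apart 3 times. It had the highest level of lhb in its group, at 9.78 CPM, against 0.371 to 1.21 CPM in the other mutants. Its level of lyst was the lowest of the 4, at 10.1 CPM, against 13.1 to 13.6 CPM. The model si:dkey-93m18.3 had 0.917 CPM in mutant 2 and 29.9 to 34.7 CPM in the other mutants.

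Mutant 3 had the highest itgbl1, at 14.2 CPM, against 8.63 to 9.21 CPM, and it was the only mutant with counts of pla2g1b, at 0.186 CPM. Mutant 4 had the lowest ambra1b, at 36.5 CPM, against 43.9 to 44.7 CPM. It was also the only one without counts of gfral, at 0 CPM, against 0.362 to 0.409 CPM, and the only one with counts of alpi.2, at 0.120 CPM. Mutant 1 had the highest flt1, at 7.003 CPM, against 5.14 to 5.39 CPM. In each of the 9 genes, all 4 mutants lay on 1 side of all controls, but the rules that chose many of the printed genes ask for this.

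The total of mutant 3 was 25484718 counts, against 15525728 to 15776603 in the other mutants, so that its values carry less counting error than those of the others.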

How the results depend on the processing

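The number of genes higher in the mutants was 562 and became 848 with library size scaling, 306 in a fit of the 2 groups alone, 306 with the length correction and 1204 with DESeq2. The number lower was 864 and became 511 in the fit of the 2 groups, 563 with the length correction and 1499 with DESeq2. Leaving out 1 library gave 90 to 526 higher and 207 to 922 lower genes. Of these, 119 and 304 came without control 1, 90 and 207 without mutant 4, 284 and 456 without mutant 1, and 289 and 498 without mutant 3. Without both mutants 3 and 4, a choice made after seeing the data, 18 were higher and 111 lower. Under the other scalings, the other filters and limma-voom the counts stayed within 1.5 times of 562 and 864.

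Replicate numbers, taken from the sample titles, showed no clear pairing of the libraries. Same-numbered mutant and control libraries deviated from their group means with r = 0.116, -0.0129 and 0.0436. The library names carry other numbers, by which control 2 matches mutant 2 (r = -0.0129) and control 3 matches mutant 4 (r = 0.0837). With the number as a replicate block, 324 genes were higher and 619 lower, and 205 and 389 with the block and the length correction together.

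Of 102 called genes that the text prints, 56 kept the call without any 1 of the 11 libraries, 82 with the length correction, 85 with the replicate block and 23 without both mutants 3 and 4. Values that changed sign were 5, all without control 2 and none of them called: mt-co1 (leaving out 1 library gave -0.53 to 0.18), mt-co2 (-0.61 to 0.12), mt-co3 (-0.58 to 0.36), mt-cyb (-0.38 to 0.25) and lhcgr (-0.71 to 0.21). The difference in length slope stayed between -0.155 and -0.100 without any 1 library. Among the 37 lists described, 11 medians changed sign under at least 1 alternative. The cause of these shifts was not tested. Low counts limit genes such as slc10a1 and her5, at under 3 CPM in all 7 libraries.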

Other observations

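A run of genes with many calls lay away from lhb and lhcgr. In the gene order of GRCz12tu, windows of 21 neighbouring tested genes held a median of 2 called genes, and the highest count was 11, of which 7 were higher and 4 lower in the mutants. Elsewhere the highest count was 8. The run was found by looking at all 14577 windows, so that its count is a description and no test. In the 41 genes of the run, 9 were higher and 4 lower, and 9 were called after the length correction.

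The model si:dkey-93m18.3, chosen after its values were seen, lies in this run. It had 34.7, 0.917, 29.9 and 31.9 CPM in the mutants, against 0, 0 and 0 CPM in the controls, so that mutant 2 was low and the other mutants were not. Over all libraries of each group it had 1925 counts in the mutants and 0 in the controls. In the fshb/lhcgr mutants it had 10.5, 14.96, 8.18 and 18.3 CPM.

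The 13 calls of the run became 3 without control 1, 3 without mutant 4, 5 without mutant 3, 7 without mutant 1, 8 without control 2, 10 without control 3, 9 without mutant 2 and 1 without both mutants 3 and 4. In the fshb/lhcgr mutants against the controls, which are the same control libraries, 1 of the 41 was called. The share called over all genes in that comparison is not given here, so this count does not set the lhb/lhcgr mutants apart.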
